A study of Homo sapiens with 2 samples.

Results

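The genes described here are 5 members of the ADAM family, ADAM8, ADAM9, ADAM10, ADAM15 and ADAM17, with 23 of the 99493 transcripts and 5 of the 57110 gene entries of the long-read data. Their transcripts are the rows of the transcript annotation that carry these gene names. The 5 genes were chosen by values measured in the same data, since they were selected on earlier results for the gene counts and for the shares of ADAM15 transcripts that differ in the tail exons, so these values are descriptions here and support nothing further.

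ADAM proteins are membrane-anchored metalloproteases. Those with an intact active site cut the extracellular part of other membrane proteins off at the cell surface, a process called shedding. ADAM10 and ADAM17 are the main sheddases of most cells: ADAM10 cuts Notch receptors and cadherins, and ADAM17 releases TNF and several ligands of the EGF receptor. ADAM15 joins its protease and disintegrin domains, through a membrane segment, to a cytoplasmic tail rich in proline, to which SH3 domain proteins bind. In ovarian cancer, shedding of EGF receptor ligands and of adhesion molecules has been studied as a part of growth and of spread within the abdomen.

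The study pooled 3 established human ovarian cancer lines, IGROV1, SK-OV-3 and COV504, in equal parts and made single-cell cDNA libraries for a short-read and a long-read platform, to benchmark the Isosceles package. No line was treated, and all groups below come from that single pool. Each platform held 1 library, and the 2 lists of cell barcodes, with 2462 entries each, shared all 2462 barcodes. Values come from the PromethION library alone, which reads whole cDNA molecules, and expression values of the Illumina library were not analysed here. With 1 library no test between groups was possible: barcodes are not replicates, and each 95% interval below covers counting error only.

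Barcodes with at least 1000 counts were put into a line group where the genes of 1 signature held at least 75% of the counts of all signature genes. The SK-OV-3-like group (ERBB2, NNMT, TSPAN1 and DHRS2) held 648 barcodes, the RARRES2-high group (RARRES2 and TMEM100) 473, and the FOLR1-high group (FOLR1, CLDN3, DEFB1 and CXCL14) 765. A further 243 barcodes stayed unassigned. Median depth was 4953, 6262 and 5289 counts per barcode in the order given, and pooled depth was 3442383, 3377992 and 4514999 counts. The markers of SK-OV-3, a line with an amplified ERBB2 region, were highest in the first group. There MIEN1 was at 528 counts per 1000000 counts of the group (CPM) and STARD3 at 214, against at most 143 and 22.2 CPM in the other groups. PGAP3 was at 22.9, 2.37 and 1.77 CPM in the SK-OV-3-like, RARRES2-high and FOLR1-high groups. GRB7 was at 56.4, 2.66 and 28.8 CPM, which is within a ratio of 2 between the SK-OV-3-like and FOLR1-high groups. CDKN2A, a gene that SK-OV-3 lacks, had 1 count in the SK-OV-3-like group, 0 in the RARRES2-high group and 88 in the FOLR1-high group. The latter 2 groups carry the names of their leading genes because no line was matched to them. Among 5 leukocyte markers, CD3E and LYZ were at 0 in all 3 groups and PTPRC and CD14 had at most 5 counts. CD68 shares a gene entry with SENP3 and EIF4A1, so it has no level of its own. Among 5 fibroblast and endothelial markers, COL1A1 was at 95.6, 23.4 and 3.32 CPM in the SK-OV-3-like, RARRES2-high and FOLR1-high groups and made up most of the list's sum of 96.7, 24.6 and 5.32 CPM. DCN was at 0, and COL3A1, PECAM1 and VWF had at most 8 counts. The part of these markers in the results below was not tested.

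The finding that the sheddases turn on is a 70-base coding exon of ADAM15. ADAM15 (ENSG00000143537) lies on chromosome 1, plus strand, at chr1:155051286-155062775 in GRCh38, with 10 transcripts in the deposited annotation. Exon numbers here are those of ENST00000271836, which has 21 exons. Exon 18 (chr1:155060205-155060343, 139 bases) is followed by exon 19 (chr1:155060763-155060832, 70 bases), exon 20 (chr1:155062245-155062369, 125 bases) and exon 21 (chr1:155062460-155062775), which carries the end of the coding sequence. ENST00000360674 has 20 exons and lacks exon 19. Since 70 is not a multiple of 3, the bases of exon 20 are read in another frame when exon 19 is skipped. The end of the coding sequence of both forms is shown because the groups differed in which of them they carried. Both run 5′ to 3′ from chr1:155060321 in exon 18 to the stop codon and come from the GENCODE release 29 transcripts. Capitals mark exon 19 and the stop codon.
ADAM15 tail with exon 19 (ENST00000271836): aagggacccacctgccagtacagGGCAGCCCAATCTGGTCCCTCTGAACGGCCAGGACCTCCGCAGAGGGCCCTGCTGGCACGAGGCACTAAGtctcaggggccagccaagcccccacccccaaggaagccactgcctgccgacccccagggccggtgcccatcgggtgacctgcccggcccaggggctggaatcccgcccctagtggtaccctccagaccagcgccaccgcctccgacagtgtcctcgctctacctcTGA
ADAM15 tail without exon 19 (ENST00000360674): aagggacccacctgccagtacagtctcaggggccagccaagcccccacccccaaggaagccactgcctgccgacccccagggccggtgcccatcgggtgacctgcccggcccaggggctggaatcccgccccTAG

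With exon 19 the coding sequence held 814 codons and stopped at chr1:155062500-155062502 in exon 21. Without it the coding sequence held 772 codons and stopped at chr1:155062354-155062356, in the next-to-last exon and 13 bases before the end of that exon. From exon 18 to the stop the longer form read 78 codons and the shorter form 36. CCN codons, which encode proline, numbered 23 of these 78 (29.5%) in the longer form and 7 of these 36 (19.4%) in the shorter form. The forms shared the coding sequence before exon 19 and differed in the length and reading frame of the end.

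**Figure D1:**
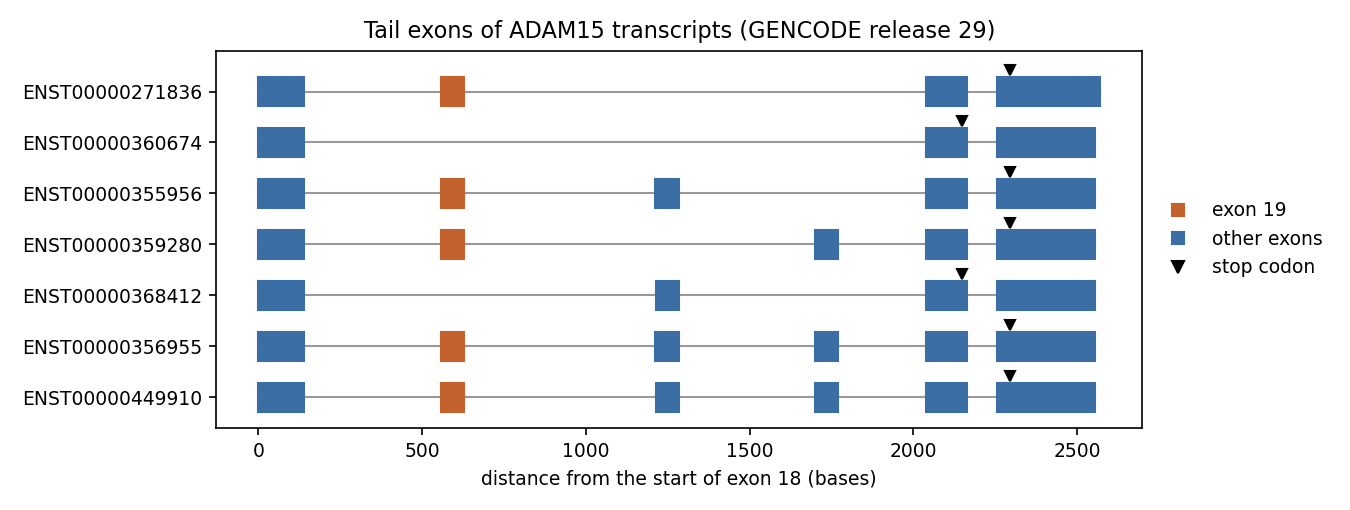
Exons from exon 18 to the last exon in 7 ADAM15 transcripts, drawn to scale against the distance in bases from the start of exon 18. Orange boxes mark exon 19, which ENST00000360674 and ENST00000368412 lack, and the triangle marks the stop codon, which lies in the next-to-last exon in these 2 transcripts and in the last exon in the others.

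ADAM15 was the sheddase whose level set the RARRES2-high group apart. It had 64 counts in the SK-OV-3-like group, 450 in the RARRES2-high group and 92 in the FOLR1-high group. Pooled levels were 18.6 CPM (interval 14.3 to 23.7), 133 CPM (interval 121 to 146) and 20.4 CPM (interval 16.4 to 25). The RARRES2-high level was 7.17-fold that of the SK-OV-3-like group (interval 5.50 to 9.46) and 6.54-fold that of the FOLR1-high group (interval 5.21 to 8.27). Between the FOLR1-high and SK-OV-3-like groups the CPM ratio was 1.10 (interval 0.788 to 1.53), within counting error, but this depended on the scaling. The log2 ratio was 0.50 without mitochondrial and ribosomal protein genes (interval 0.027 to 0.99) and 0.51 with median-ratio size factors (interval 0.038 to 1.00), both above 0, and -0.078 with the mean of single-barcode CPM. Both comparisons of the RARRES2-high group use the same RARRES2-high barcodes.

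ADAM15 reads were spread over many barcodes of the RARRES2-high group. At least 1 count was found in 245 of its barcodes (51.8%), with at most 7 counts in any of them. In the SK-OV-3-like group 58 barcodes (8.95%) had a count, and in the FOLR1-high group 78 (10.2%), with at most 2 counts in each. After each barcode was thinned to 2000 counts, which left out 42, 30 and 32 shallower barcodes, ADAM15 was found in 4.13% of SK-OV-3-like barcodes (interval 2.69 to 6.03%), 21.9% of RARRES2-high barcodes (interval 18.1 to 26.0%) and 3.96% of FOLR1-high barcodes (interval 2.67 to 5.63%). At the same depth CDKN2A, as a gene that should be missing, was found in 0 of 606 SK-OV-3-like barcodes (upper bound of the interval 0.607%) and in 2.86% of FOLR1-high barcodes. CDKN2A was at 0 in the RARRES2-high group, so it does not measure RNA from those barcodes. RARRES2 itself, a gene of the grouping rule at 1648 CPM in the RARRES2-high group, was at 43.6 CPM in the SK-OV-3-like group, with a count in 19.4% of barcodes before thinning, and at 2.44 CPM in the FOLR1-high group, with a count in 0.784%. The part of such RNA in the ADAM15 counts of these groups was not tested.

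ADAM9 encodes a sheddase that is widely expressed in epithelia and cancers (ENSG00000168615, chr8:38996869-39105001). It had 278 counts in the SK-OV-3-like group, 361 in the RARRES2-high group and 368 in the FOLR1-high group. The levels were 80.8 CPM (interval 71.5 to 90.8), 107 CPM (interval 96.1 to 118) and 81.5 CPM (interval 73.4 to 90.3). The RARRES2-high level was 1.32-fold (interval 1.13 to 1.55) and 1.31-fold (interval 1.13 to 1.52) that of the other groups. The latter ratio depended on the scaling: its log2 value was 0.39 with CPM of all counts, 0.08 without mitochondrial and ribosomal protein genes and 0.15 with median-ratio size factors. Under these scalings ADAM9 was higher in the FOLR1-high than in the SK-OV-3-like group by 0.38 and 0.40 on the log2 scale, against 0.01 in CPM. With at least 10 signature counts per barcode, the log2 ratio of ADAM9 between the RARRES2-high and SK-OV-3-like groups fell from 0.40 to 0.27, with an interval of -0.0057 to 0.55 that includes no difference.

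ADAM10 (ENSG00000137845, chr15:58588807-58749978) had 266, 332 and 429 counts in the SK-OV-3-like, RARRES2-high and FOLR1-high groups. Its levels were 77.3 CPM (interval 68.3 to 87.1), 98.3 CPM (interval 88.0 to 109) and 95 CPM (interval 86.2 to 104). The SK-OV-3-like group was lowest: the RARRES2-high level was 1.27-fold (interval 1.08 to 1.5) and the FOLR1-high level 1.23-fold (interval 1.05 to 1.44) its level. The latter difference, 0.30 on the log2 scale in CPM, was 0.67 without mitochondrial and ribosomal protein genes and 0.68 with median-ratio size factors. Between the RARRES2-high and FOLR1-high groups the CPM ratio was 1.03 (interval 0.894 to 1.20), within counting error, but its sign turned with the scaling. The log2 ratio went from 0.05 to -0.26 without mitochondrial and ribosomal protein genes, with an interval of -0.48 to -0.055 that lies below 0. It was -0.19 with median-ratio size factors (interval -0.40 to 0.021) and -0.11 in CPM with a signature share of at least 90%. With that share the log2 ratio between the RARRES2-high and SK-OV-3-like groups fell from 0.35 to 0.22, with an interval of -0.085 to 0.53 that includes no difference.

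ADAM17 (ENSG00000151694, chr2:9488486-9555792), the enzyme first known for releasing TNF, had 70, 59 and 78 counts. Its levels of 20.3 CPM (interval 15.9 to 25.7), 17.5 CPM (interval 13.3 to 22.5) and 17.3 CPM (interval 13.7 to 21.6) overlapped in all 3 groups. The ratio was 0.859 between the RARRES2-high and SK-OV-3-like groups (interval 0.597 to 1.23), 1.01 between the RARRES2-high and FOLR1-high groups (interval 0.708 to 1.44) and 0.850 between the FOLR1-high and SK-OV-3-like groups (interval 0.607 to 1.19). At this depth a difference up to the ends of these intervals could not be told from none.

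ADAM8 encodes a sheddase best known from myeloid cells (ENSG00000151651, chr10:133262403-133276868). It was close to the detection limit, with 12 counts over all 2462 barcodes. The SK-OV-3-like group had 1 count, the RARRES2-high group 8 and the FOLR1-high group 0. The RARRES2-high level of 2.37 CPM was 8.15-fold the SK-OV-3-like level, with a counting interval of 1.09 to 362. Against the FOLR1-high group, taken at a floor of 3 counts over the group or 0.664 CPM, the level was at least 3.56-fold higher as counted. With the counting error of the 8 counts included, the interval of that ratio starts at 2.28.

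**Figure D2:**
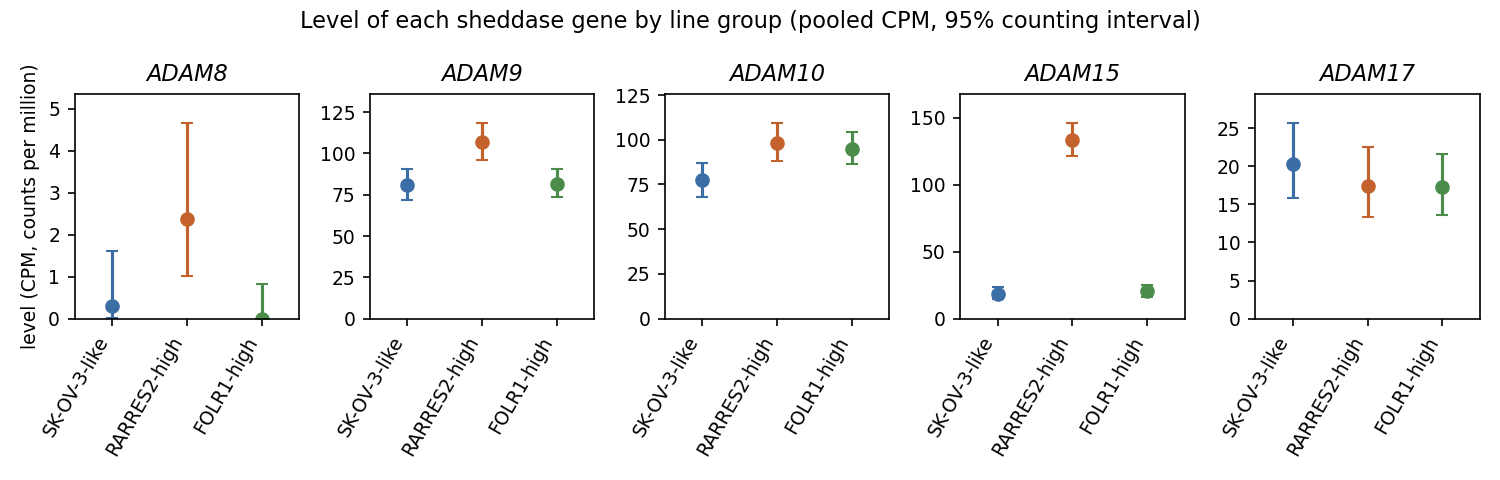
Level of each sheddase gene in CPM (scaled counts, pooled over the barcodes of a group; each panel has its own scale from 0) in the 3 line groups. Points are pooled levels and bars are 95% counting intervals. The RARRES2-high interval for ADAM15 (121 to 146) lies above both others, while the 3 intervals of ADAM17 overlap.

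Over all genes the groups differed widely, and the sheddases are read against that. Of 9137 gene entries with at least 50 counts over the RARRES2-high and SK-OV-3-like groups, 13.0% were higher in the RARRES2-high group by a ratio of 2 or more and 21.1% were lower, 34.1% in either direction. Among the sheddases, 4 of 5 had 50 counts, and 1 of these, ADAM15, was higher by that ratio. It ranked 272 of 9137 by ratio. The members' median log2 ratio was 0.38, beside -0.21 over all genes. Against the FOLR1-high group 21.9% of 9100 entries were higher in the RARRES2-high group and 12.9% lower, 34.8% in either direction. Again 1 of 4 members, ADAM15, was higher, at rank 524. The members' median was 0.22 and that of all genes 0.20. Between the FOLR1-high and SK-OV-3-like groups 9.36% were higher and 26.0% lower, 35.3% in either direction, with 0 of 4 members past the ratio. In that pair the median was 0.07 for the members and -0.45 for all genes.

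The balance of higher and lower genes depended on the scaling. In CPM, 62.9% of the genes past the ratio were higher in the RARRES2-high than in the FOLR1-high group. The share was 45.1% without mitochondrial and ribosomal protein genes and 49.4% with median-ratio size factors. Between the FOLR1-high and SK-OV-3-like groups it was 26.5%, 47.1% and 47.9%. Mitochondrial genes held 7.07% of the FOLR1-high counts, against 2.93% of the SK-OV-3-like and 3.11% of the RARRES2-high counts. The ADAM15 log2 ratio stayed between 2.76 and 3.05 against the SK-OV-3-like group, and between 2.40 and 2.84 against the FOLR1-high group, over 7 alternatives.

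The line groups carried different ADAM15 transcripts. ENST00000360674, the form without exon 19, held 3.72% of the ADAM15 estimate in the SK-OV-3-like group (interval 0.381 to 10.8%), 76.3% in the RARRES2-high group (interval 72.0 to 80.1%) and 5% in the FOLR1-high group (interval 1.79 to 12.2%). ENST00000271836, which has exon 19, held 48.9%, 10.7% and 47.6% in the same order. It is 1 of 3 transcripts with exon 19 and none of the further alternative tail exons, beside ENST00000368413 and ENST00000531455. Of the ADAM15 counts assigned whole to a transcript, ENST00000360674 had 1, 213 and 2, and ENST00000271836 had 12, 8 and 9. Reads that fit several transcripts were split between them, and reads with exon 19 fit more transcripts than reads without it.

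In the pairs with the RARRES2-high group this was the largest transcript difference among the genes compared. The share of ENST00000360674 differed by 72.6 points between the RARRES2-high and SK-OV-3-like groups, rank 1 of 4237 genes with at least 50 counts in both groups and several transcripts. It differed by 71.3 points between the RARRES2-high and FOLR1-high groups, rank 1 of 4115. A difference of 20 points or more was found in 2.45% of genes in the first pair and in 3.26% in the second. In each of these pairs 1 of 4 sheddases passed 20 points. Since the ADAM15 tail was part of the choice of the genes, nothing is read from the ranks or from that count. Between the FOLR1-high and SK-OV-3-like groups, where 2.21% of 4471 genes passed, no sheddase did, and the largest ADAM15 difference was 6.92 points.

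ADAM9, ADAM10 and ADAM17 each had the same main transcript in all 3 groups. ENST00000487273 held 94.9% to 97.0% of ADAM9, ENST00000260408 held 97.1% to 97.8% of ADAM10, and ENST00000310823 held 89.8% to 96.6% of ADAM17 over the 3 groups. ENST00000618923 and ENST00000497134 of ADAM17 were each assigned at most 5.09%, with 0 whole counts. The largest share difference in any pair was 2.04 points for ADAM9, 0.893 points for ADAM10 and 6.74 points for ADAM17. ADAM8, whose 8 counts in the RARRES2-high group were split into 4.5 for ENST00000445355 and 3.5 for ENST00000415217, had too few to be compared.

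**Figure D3:**
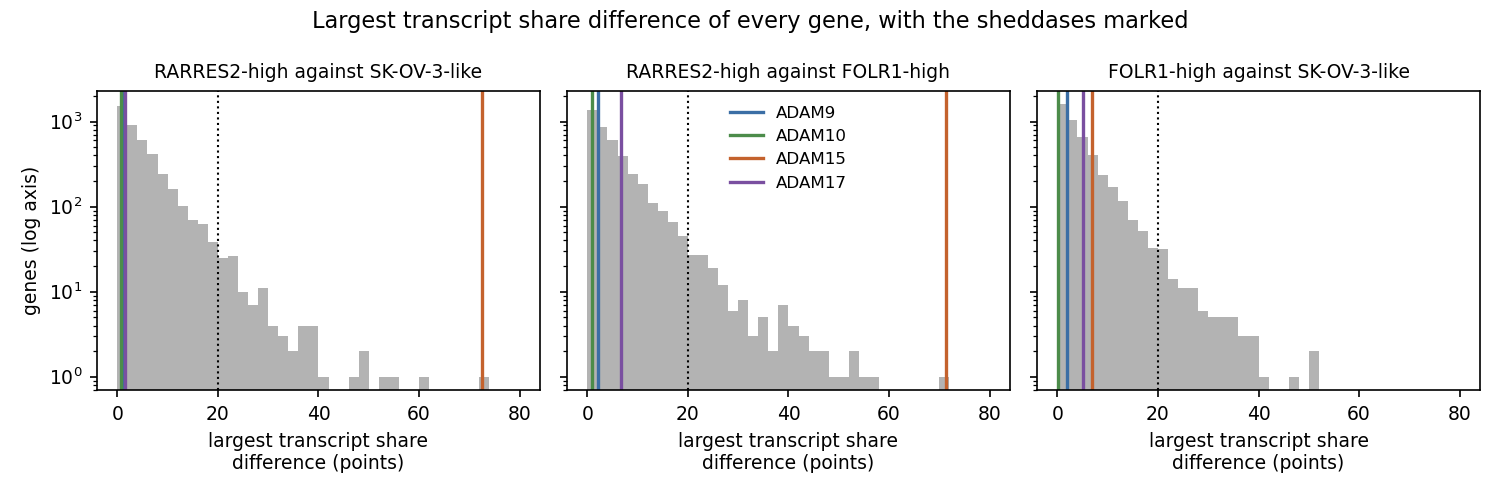
Number of genes (log axis) by their largest transcript share difference, in percentage points, for each pair of line groups. Coloured lines mark the sheddases and the dotted line 20 points. ADAM15 lies at 72.6 and 71.3 points in the pairs with the RARRES2-high group and at 6.92 points in the pair without it.

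Summed by exon, the same transcript estimates give the share of exon 19, which is a restatement of the tail shares and no separate evidence. The transcripts with exon 19 held 94.1% of the 64 counts that cover it in the SK-OV-3-like group (interval 84.8 to 98.3%). In the FOLR1-high group they held 92.0% of 89.9 (interval 84.6 to 96.8%), and in the RARRES2-high group 21.3% of 443 (interval 17.5 to 25.3%). These estimates include reads that fit both forms. Barcodes in which the counts with and without exon 19 were both whole, called resolved here and chosen after the data were seen, show no split between the forms. Whether a read that fits both forms was assigned whole to 1 of them was not tested. Resolved barcodes gave 46 of 47 counts with exon 19 in the SK-OV-3-like group (97.9%, interval 88.7 to 99.9%), 55 of 57 in the FOLR1-high group (96.5%, interval 87.9 to 99.6%) and 33 of 247 in the RARRES2-high group (13.4%, interval 9.38 to 18.2%).

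Exon 19 use was also listed by ADAM15 counts per barcode, a restatement of the same estimates and no separate evidence. Of the barcodes with only 1 ADAM15 count over the exon, 41 of 52 were resolved in the SK-OV-3-like group. In the RARRES2-high group 92 of 125 were resolved, and in the FOLR1-high group 43 of 63. Among resolved barcodes with only 1 ADAM15 count over the exon, 40 of 41 carried exon 19 in the SK-OV-3-like group, 43 of 43 in the FOLR1-high group and 15 of 92 in the RARRES2-high group. In resolved RARRES2-high barcodes with 2 or more counts, 50 of 66 held only the skipped form, 16 held both forms and 0 held only the included form. In the SK-OV-3-like group all 3 such barcodes held only the included form. In the FOLR1-high group 6 of 7 held only the included form and 1 only the skipped form. With the barcodes that Scrublet called doublets removed, exon 19 inclusion from all estimates was 93.8%, 21.2% and 92.0% in the SK-OV-3-like, RARRES2-high and FOLR1-high groups.

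Barcodes below the signature limit of 75% lay between the groups in exon use. The 243 unassigned barcodes had 202 ADAM15 counts, or 126 CPM (interval 109 to 144). Exon 19 was carried by 37 of their 120 resolved counts (30.8%, interval 22.7 to 39.9%). Of 26 resolved barcodes with 2 or more counts, 10 held only the skipped form and 16 held both. Within the FOLR1-high group, barcodes led by CXCL14 carried exon 19 in 14 of 16 resolved counts and those led by DEFB1 in 16 of 16, and their ADAM15 levels were 19.4 CPM (interval 12.8 to 28.3) and 20.8 CPM (interval 13.6 to 30.5).

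**Figure D4:**
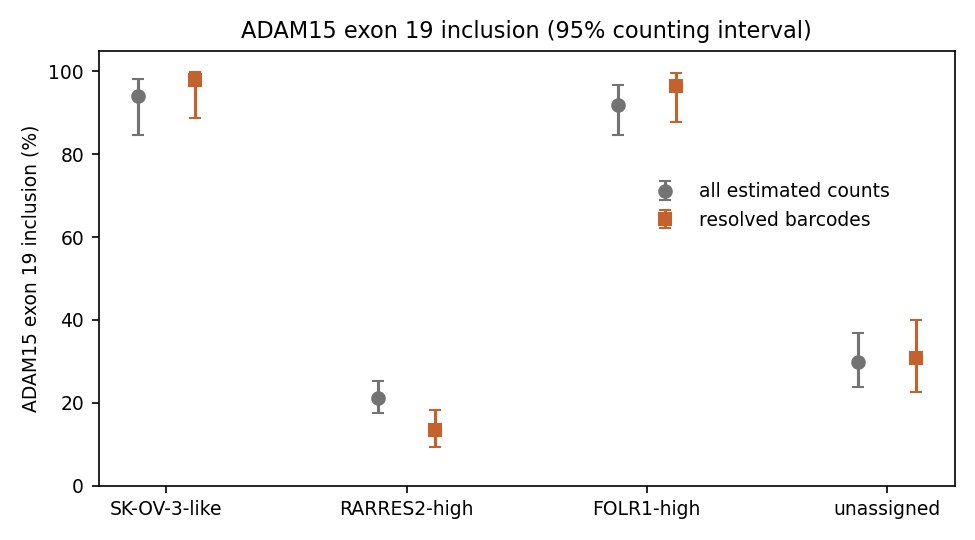
Share of ADAM15 counts with exon 19, in percent, in the 3 line groups and in the unassigned barcodes with at least 1000 counts. Circles use all estimated counts, squares use resolved barcodes, and bars are 95% counting intervals. The RARRES2-high values are 21.3% and 13.4%, and the SK-OV-3-like and FOLR1-high values are all above 90%.

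Split by form, the higher ADAM15 level of the RARRES2-high group lay in the form without exon 19. With all estimates, the skipped form was at 1.09 CPM in the SK-OV-3-like group (interval 0.317 to 2.98), 103 CPM in the RARRES2-high group (interval 92.8 to 115) and 1.6 CPM in the FOLR1-high group (interval 0.623 to 3.19). With resolved counts alone, it had 1, 214 and 2 counts. The level of the included form was 17.5 CPM (interval 13.3 to 22.4), 27.9 CPM (interval 22.5 to 34.1) and 18.3 CPM (interval 14.6 to 22.8) with all estimates. The order of the included form between groups depended on the handling of reads that fit both forms. Its ratio between the RARRES2-high and SK-OV-3-like groups was 1.59 with all estimates (interval 1.14 to 2.25) and 0.731 with resolved counts (interval 0.453 to 1.17). When the resolved share was applied to all counts covering the exon, the level of the included form was 18.2, 17.5 and 19.2 CPM in the SK-OV-3-like, RARRES2-high and FOLR1-high groups.

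Other alternative exons of the ADAM15 tail were found in a minority of counts. GENCODE release 29 places further exons between exons 19 and 20, at chr1:155061415-155061489 (75 bases), its shorter version chr1:155061418-155061489 (72 bases) and chr1:155061904-155061975 (72 bases). All of these lengths are multiples of 3 and keep the reading frame. With all estimates, any of them was included in 15.5% of the counts that cover the tail in the SK-OV-3-like group, 6.45% in the RARRES2-high group and 18.9% in the FOLR1-high group. ENST00000356955, with both a 75-base and a 72-base exon, was the only such transcript assigned 5% or more in a group, at 5.73% in the FOLR1-high group. In counts resolved for these exons, any of them was found in 3 of 47 in the SK-OV-3-like group (6.38%, interval 1.34 to 17.5%), 1 of 243 in the RARRES2-high group (0.412%, interval 0.0104 to 2.27%) and 4 of 57 in the FOLR1-high group (7.02%, interval 1.95 to 17.0%). The resolved set differs by exon. In counts resolved for the 75-base exon alone, it was found in 1 of 46, 2 of 247 and 2 of 55 in the same order.

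Differences upstream of the tail could not be settled for ADAM15. ENST00000368413, which leaves out exons of the protease part, was assigned 20.6%, 4.13% and 22.3% of the estimate in the SK-OV-3-like, RARRES2-high and FOLR1-high groups. It received 0 whole counts in each group, and whether any read fit it alone was not tested. The inclusion of the 79-base exon at chr1:155053910-155053988 was accordingly estimated at 79.4%, 95.9% and 77.7%, and the same values hold for the other exons that it leaves out or shortens, up to chr1:155057188-155057362. ENST00000531455, with 11.3%, 0.974% and 4.36%, also had 0 whole counts. It has chr1:155052641-155052777 in place of the shorter exon chr1:155052671-155052777, whose inclusion was estimated at 88.7%, 99.0% and 95.6%.

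ADAM10 depends on tetraspanins of the TspanC8 group, which carry it out of the endoplasmic reticulum and steer its choice of substrates. Of the 6 genes, 4 had 50 counts over the RARRES2-high and SK-OV-3-like groups, with 2 lower in the RARRES2-high group and 0 higher, beside 21.1% and 13.0% of all genes. TSPAN5 was at 28.8, 7.70 and 0.221 CPM in the SK-OV-3-like, RARRES2-high and FOLR1-high groups, with 1 count in the last. TSPAN15, which directs ADAM10 to N-cadherin, was at 46.5, 12.7 and 14.0 CPM. Both were highest in the SK-OV-3-like group. TSPAN14 was lowest in the RARRES2-high group, at 48.0 CPM against 86.6 and 93.2 CPM. TSPAN17 was at 13.1, 15.1 and 7.53 CPM, a ratio of 2 between the RARRES2-high and FOLR1-high groups that fell short of the limit in the other scalings. In that pair 1 of 3 genes was higher and 0 lower in CPM (all genes 21.9% and 12.9%), and 0 were higher and 1 lower in the 3 other scalings. TSPAN10 and TSPAN33 had at most 6 counts in any group.

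ADAM17 is carried to the cell surface by the iRhom proteins, encoded by RHBDF1 and RHBDF2, with FRMD8 as a stabilising partner. RHBDF2 was highest in the RARRES2-high group, at 19.5 CPM against 7.55 CPM in the SK-OV-3-like group (ratio 2.59, interval 1.62 to 4.24) and 4.43 CPM in the FOLR1-high group (ratio 4.41, interval 2.64 to 7.68). RHBDF1 was at 11.3, 8.29 and 6.42 CPM and FRMD8 at 6.68, 8.58 and 5.76 CPM, neither past a ratio of 2. Over these 3 genes 1 was higher in the RARRES2-high group in both of its pairs, in which 13.0% and 21.9% of all genes were higher.

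Most of these sheddases, ADAM10 and ADAM17 among them, are made as inactive precursors that proprotein convertases cut. FURIN was at 35.4, 59.2 and 13.3 CPM in the SK-OV-3-like, RARRES2-high and FOLR1-high groups. Its RARRES2-high level was 4.46-fold the FOLR1-high level (interval 3.32 to 6.05) and 1.67-fold the SK-OV-3-like level (interval 1.33 to 2.11). PCSK5 was at 11.0, 12.7 and 16.4 CPM and PCSK7 at 2.61, 3.55 and 1.99 CPM. PCSK6 had 2, 0 and 0 counts.

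Tissue inhibitors of metalloproteases block sheddases as well as matrix metalloproteases, and TIMP3 is the main inhibitor of ADAM17. TIMP3 had 4 counts in the SK-OV-3-like group, 147 in the RARRES2-high group and 4 in the FOLR1-high group, or 1.16, 43.5 and 0.886 CPM. The ratio was 37.5 (interval 14.3 to 139) and 49.1 (interval 18.8 to 183) against the other groups. TIMP2 was also highest there, at 302 CPM against 117 and 33.7 CPM. TIMP1, which inhibits ADAM10, was at 379, 447 and 300 CPM, within a ratio of 2. RECK, a membrane-anchored inhibitor of ADAM10, was at 6.97, 11.2 and 3.54 CPM. Of the 4 of 5 inhibitor genes with 50 counts, 2 were higher in the RARRES2-high than in the SK-OV-3-like group and 3 higher than in the FOLR1-high group, with 0 lower. Of all genes 13.0% and 21.9% were higher in these pairs. These counts were the same under the 3 other scalings.

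**Figure D5:**
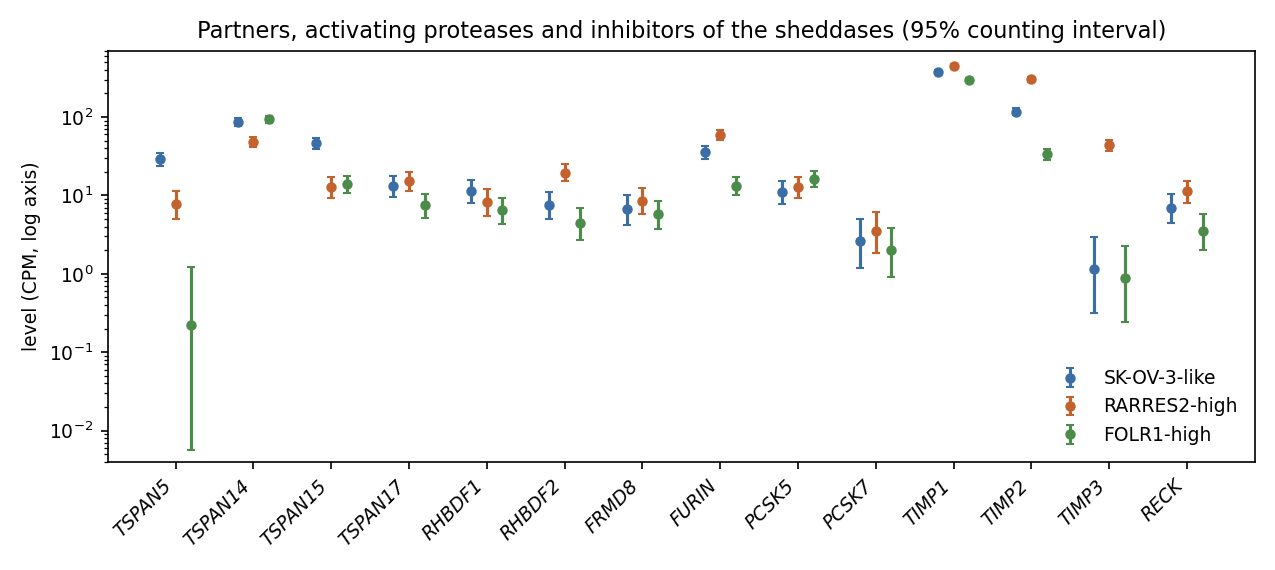
Levels in CPM (log axis) of partners, activating proteases and inhibitors of the sheddases in the 3 line groups, with 95% counting intervals. TIMP3 is at 43.5 CPM in the RARRES2-high group against 1.16 and 0.886 CPM, and TSPAN5 is at 0.221 CPM in the FOLR1-high group.

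The cytoplasmic tails of ADAM15, ADAM9 and ADAM17 bind SH3 domain proteins and a few others. Of 18 such genes, 17 had 50 counts over the RARRES2-high and SK-OV-3-like groups, with 1 higher and 5 lower in the RARRES2-high group, beside 13.0% and 21.1% of all genes. The median log2 ratio was -0.54, and -0.21 over all genes. SH3PXD2A, which encodes the podosome scaffold TKS5, was higher, at 34.9 against 12.8 CPM. Among those lower were SNX9 (32.3 against 88.6 CPM), a sorting nexin that binds ADAM9 and ADAM15, and NCK1, NCK2 and MAD2L2. Against the FOLR1-high group 3 of 16 were higher and 0 lower, beside 21.9% and 12.9% of all genes. The adaptor GRB2, at 95.3, 169 and 69.8 CPM, was among the 3 in CPM, and the count was 1 to 2 in the other scalings. The FOLR1-high group had 1 of 17 higher and 5 lower than the SK-OV-3-like group, beside 9.36% and 26.0% of all genes. In that pair the median log2 ratio was -0.77, and -0.45 over all genes. The number lower there was 2 without mitochondrial and ribosomal protein genes and 2 with median-ratio size factors. SRC was at 12.5, 10.4 and 13.1 CPM, within a ratio of 2 in each pair.

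Known substrates of ADAM17 differed in which members each group expressed. Between the RARRES2-high and SK-OV-3-like groups 1 of 10 genes with 50 counts was higher and 6 were lower, beside 13.0% and 21.1% of all genes. ICAM1, an adhesion receptor for leukocytes, had 73 counts in the RARRES2-high group and 0 in the SK-OV-3-like group, at least 24.8-fold higher as counted against a floor of 3 counts over the group, with an interval that starts at 19.7. MICA, a ligand of an activating receptor of natural killer cells, was lower, at 3.55 against 23.5 CPM, as were IL6R, at 2.96 against 13.7 CPM, and ALCAM, at 107 against 257 CPM. The median log2 ratio was -1.19, against -0.21 over all genes, and it stays the same with ICAM1 set to its bound. Against the FOLR1-high group 4 of 10 were higher in the RARRES2-high group and 3 lower, beside 21.9% and 12.9% of all genes. The FOLR1-high group had 1 of 9 higher and 5 lower than the SK-OV-3-like group, beside 9.36% and 26.0% of all genes. Among ligands of the EGF receptor, TGFA had 1 count in the FOLR1-high group, against 80 in the RARRES2-high and 49 in the SK-OV-3-like group, and HBEGF had 2 against 48 and 28. EREG, another such ligand that was chosen after its values were seen, was highest in the FOLR1-high group, at 34.3 CPM against 18 CPM in the SK-OV-3-like and 7.99 CPM in the RARRES2-high group. NRG1, a ligand of ERBB3 and ERBB4, had 0 counts in the FOLR1-high group and 90 in the SK-OV-3-like group, at least 39.3-fold higher in the latter as counted against the same floor, with an interval that starts at 31.3. ERBB4, itself cut by ADAM17, had 157 counts in the FOLR1-high group, 17 in the SK-OV-3-like group and 0 in the RARRES2-high group.

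Known substrates of ADAM10 were compared in the same way. Against the SK-OV-3-like group, 7 of 15 with 50 counts were higher in the RARRES2-high group and 2 lower, beside 13.0% and 21.1% of all genes. Their median log2 ratio was 0.80, and -0.21 over all genes. ERBB2, one of the lower genes, was part of the rule for the groups. CXCL16, a membrane-bound chemokine, was at 13.6 against 1.45 CPM, the receptor tyrosine kinase MET at 147 against 41.0 CPM, and CDH1, which encodes E-cadherin, at 45 against 8.42 CPM. Against the FOLR1-high group 7 of 16 were higher and 2 lower in CPM (all genes 21.9% and 12.9%), and 5 higher and 3 lower without mitochondrial and ribosomal protein genes. CDH2, which encodes N-cadherin, was at 35.7, 80.8 and 1.33 CPM in the SK-OV-3-like, RARRES2-high and FOLR1-high groups, and the receptor tyrosine kinase AXL was at 50.8, 79.0 and 1.33 CPM. Both were near 0 in the FOLR1-high group, where 5 of 14 genes were higher and 4 lower than in the SK-OV-3-like group (all genes 9.36% and 26.0%). NOTCH3 ran the other way, at 0.871, 3.85 and 11.1 CPM.

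Other members of the ADAM family were scarce. Of 7 further genes with a protease site and 8 without, 0 reached 50 counts in any pair of groups. The following were chosen after their values were seen. ADAM12 had 45, 2 and 0 counts in the SK-OV-3-like, RARRES2-high and FOLR1-high groups, ADAM19 had 14, 18 and 1, and ADAM22, which lacks a protease site, had 5, 0 and 24.

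The genes nearest to each sheddase over the 3 groups were listed by the distance between centred log2(CPM + 5) levels, over 8106 candidate genes. For ADAM15 they were ZBED2 (2.90, 39.1 and 3.32 CPM in the SK-OV-3-like, RARRES2-high and FOLR1-high groups), WBP2 (40.4, 243 and 44.1 CPM) and PRTFDC1 (0.290, 29 and 0.886 CPM), with 14 genes within a distance of 0.25. The added 5 CPM compresses the ratios of genes near 0, so ZBED2 and PRTFDC1 lie near ADAM15 without sharing its CPM ratios. For ADAM9 the nearest were FAM189B, UBASH3B and LIN9, for ADAM10 DNAJC9, DDX55 and DEAF1, and for ADAM17 SF3A1, PICK1 and ZNF335. With 3 points per gene, profiles this flat are common: 583, 484 and 880 genes lay within the same distance of ADAM9, ADAM10 and ADAM17.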

How the data were processed

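The authors deposited the PromethION data as a matrix of estimated counts, with transcripts as rows and barcodes as columns. Cell Ranger 6.0.1 and GRCh38 are named in the submitters' processing notes and Isosceles in the design text; not given in the sources used here are the aligner, the Isosceles version and whether molecular identifiers were collapsed. Of 8294569 matrix entries 39.8% were whole within 1e-06, and all sums per gene entry and barcode were whole. Of 57110 gene entries, 722 join several genes; these were left out of transcript share comparisons. The pool gave 1 library per platform.

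From these counts, gene sums per line group were scaled to CPM with exact Poisson intervals. Ratios carry exact conditional binomial intervals, and shares exact Clopper-Pearson intervals, at a level of 95%. PCR copies may not have been collapsed, so intervals and floors cover counting error only. A gene was compared with at least 50 counts over both groups against a ratio of 2, and its transcripts with at least 50 counts in each group against a share difference of 20 points. Exon models and sequences are those of GENCODE release 29 on GRCh38, joined through the Ensembl names of transcripts, and positions count from 1. Barcodes were thinned to 2000 counts with seed 0 for detection shares. Doublets stayed in, except in an alternative with Scrublet (scanpy 1.11.5, expected rate 0.02), which called 77 barcodes (3.13%). Work was done in Python 3.11.15 with numpy 2.4.6, scipy 1.17.1 and pandas 2.3.3, and the statistics were tested on simulated data.

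Besides all 5 members, the text names up to 4 genes with the largest ratio in each list and pair, list genes known as partners or inhibitors, the 3 nearest genes per member with at least 100 counts, transcripts with at least 5% of a member, and exons that differ by at least 10 points. For the gamma secretase list only the counts are given, and no gene is named. The members and the gene lists were chosen with earlier results of these data known.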

Additional observations from a re-analysis of the deposited data

How the results depend on the processing

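No paired analysis was possible because there is 1 library per platform, with no test to pair. Of the values recomputed under the alternatives for the main results, 79 stayed within the interval or within 1.5 times the count and 28 moved further. In the RARRES2-high group a signature share of at least 90% moved the share of ENST00000360674 to 81.7% and exon 19 inclusion to 15.5%, and resolved barcodes only, chosen after seeing the data, gave 13.4%. Whole estimates alone gave 93.0% and 4.05% there, and 13.3% and 84.6% in the FOLR1-high group; by construction they keep few reads with exon 19, which are split over several transcripts. The number of genes past the ratio, for RARRES2-high over SK-OV-3-like, RARRES2-high over FOLR1-high and FOLR1-high over SK-OV-3-like, was 3119, 3165 and 3265. It became 8554, 8762 and 8469 with no minimum count, 5097, 5039 and 5378 at a ratio limit of 1.5, and 1510, 1695 and 1550 at a limit of 3. The number of genes past the share limit, from 104, 134 and 99, became 66, 80 and 55 with at least 100 counts in both groups, where ADAM15 itself drops out. It became 539, 628 and 540 at a limit of 10 points and 25, 43 and 25 at 30 points. Thinning to 1000 counts put ADAM15 detection at 2.01%, 13.3% and 1.70% in the SK-OV-3-like, RARRES2-high and FOLR1-high groups, as a lower depth must. The median log2 ratio of all genes between the RARRES2-high and FOLR1-high groups, 0.20 in CPM, changed sign to -0.12 without mitochondrial and ribosomal protein genes and to -0.042 with median-ratio size factors. Depth limits ADAM8 and ADAM17, and the ADAM15 forms outside the RARRES2-high group rest on 47 and 57 resolved counts. Many barcodes were assigned on few signature counts: 46.3%, 42.1% and 62.6% had fewer than 10.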

Other observations

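BACE2, a membrane protease that can also cut APP, was at 42.4, 41.4 and 1.33 CPM in the SK-OV-3-like, RARRES2-high and FOLR1-high groups. The membrane-type protease MMP15 was at 6.39, 0.888 and 24.1 CPM. Of 6 gamma secretase subunits, 0 were higher and 4 lower in the RARRES2-high than in the SK-OV-3-like group (all genes 13.0% and 21.1%). Against the FOLR1-high group 0 of 4 were higher and 2 lower (all genes 21.9% and 12.9%). The FOLR1-high group had 0 of 6 higher and 3 lower than the SK-OV-3-like group (all genes 9.36% and 26.0%). With median-ratio size factors 3, 2 and 2 were lower in these pairs.

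Of the integrin subunits reported as partners of ADAM disintegrin domains, 5 of 7 with 50 counts over the pair were higher by a ratio of 2 or more in the RARRES2-high than in the FOLR1-high group and 1 was lower, beside 21.9% and 12.9% of all genes. The RARRES2-high group had 1 of 8 higher and 2 lower than the SK-OV-3-like group, beside 13.0% and 21.1% of all genes. The FOLR1-high group had 0 of 7 higher and 5 lower than the SK-OV-3-like group, beside 9.36% and 26.0% of all genes. ITGA3 was at 241, 306 and 28.3 CPM in the SK-OV-3-like, RARRES2-high and FOLR1-high groups. ITGB5 was at 33.1, 39.1 and 5.09 CPM and ITGA6 at 131, 131 and 20.6 CPM. ITGB1, the shared beta subunit, was at 514, 209 and 185 CPM. ITGAV, whose pairing with ITGB3 binds the ADAM15 disintegrin domain, was highest in the FOLR1-high group, at 79.0, 44.1 and 101 CPM.

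Of the ERBB receptors, whose ligands ADAM17 releases, EGFR was at 68.6, 147 and 43.4 CPM in the SK-OV-3-like, RARRES2-high and FOLR1-high groups. ERBB3 had 0, 26 and 42 counts.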
